A study of Mus musculus with 12 samples.

Results

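The genes described here are 9 markers of the epicardium and of mesothelium: Wt1, Tcf21, Aldh1a2, Msln, Upk3b, Upk1b, Krt8, Krt18 and Krt19. They were chosen by name from the platform annotation, and all 9 were found among 17742 named genes, each with 1 probe. RNA came from whole hearts of mice on a C57bl/6 X 129 hybrid background at postnatal day 8. The groups were 2 samples labelled Salv CKO, a conditional mutant of Salvador (Sav1), and 2 wild-type samples labelled Control, each measured on 3 technical arrays of 26423 probes, for 12 arrays in all. Not given in the sources are the Cre driver, which part of Sav1 was deleted, and whether hearts were pooled. The source label says embryonic heart, while both the stage label and the protocol name postnatal day 8.

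The epicardium is the thin mesothelial sheet that covers the heart, and its cells combine epithelial features, such as keratin filaments, with the transcription factors Wt1 and Tcf21. In the embryo some of its cells leave the sheet and become fibroblasts and mural cells of the coronary vessels, and the sheet supplies retinoic acid and growth factors to the muscle below. Salvador is the scaffold of the Hippo kinases, which restrain the co-activators Yap1 and Wwtr1, partners of the TEAD transcription factors.

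Heart muscle genes were bright and even between samples: intensities of cardiac troponin T, Tnnt2, ran from 32190 to 39809, and the levels of 6 such genes spanned a median of 0.24 over the 4 samples. Levels throughout are log2(intensity + 1) after quantile normalization, averaged over the 3 arrays of a sample, so that 1 unit is a doubling for bright probes. All 9 markers lay above the median probe by mean level, Krt18 and Krt8 nearest to it, at the percentiles 55.8 and 57.8, and Upk3b farthest above it, at 89.5. The probe for Sav1 stood at 8.06 and 8.52 in Salv CKO 1 and 2, against 8.75 and 8.08 in Control 1 and 2. The groups overlapped in Sav1, and since the probe's place relative to the deletion is not known here, the samples are called by their labels. Because whole hearts were used, fewer epicardial cells and less RNA per cell cannot be told apart in any value below.

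Across the 9 markers the groups were not separated by the test. Levels of Wt1, Krt8, Krt19, Upk1b and Msln were lower on average in the samples labelled Salv CKO, by 0.23 to 0.51, and those of Aldh1a2, Upk3b, Krt18 and Tcf21 were higher, by 0.07 to 0.36. In limma, 0 of 9 passed an adjusted p of 0.05 (smallest adjusted p = 0.999), where 0 of 26423 probes, or 0.0%, passed in all. At an unadjusted p under 0.05 there were 0 of 9 markers, against 1047 probes, or 3.96%. The median difference was -0.23 over the markers and -0.01 over all probes. It was -0.09 over the markers without Salv CKO 1 and -0.38 without Salv CKO 2. With each array centred on its median it was -0.39 over the markers, against -0.08 over all probes. The 95% interval of the difference included 0 for 9 of 9.

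The groups did not overlap for 5 of 9 markers, against 30.6% of all probes. Of these 5, Wt1, Krt8, Krt19 and Upk1b were lower in both samples labelled Salv CKO, against 15.8% of all probes, and Aldh1a2 was higher in both, against 14.8%. The 4 lower markers became 2 when arrays were centred on their medians and 0 without normalization between arrays, where 15.4% and 4.43% of all probes were lower without overlap.

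**Figure D1:**
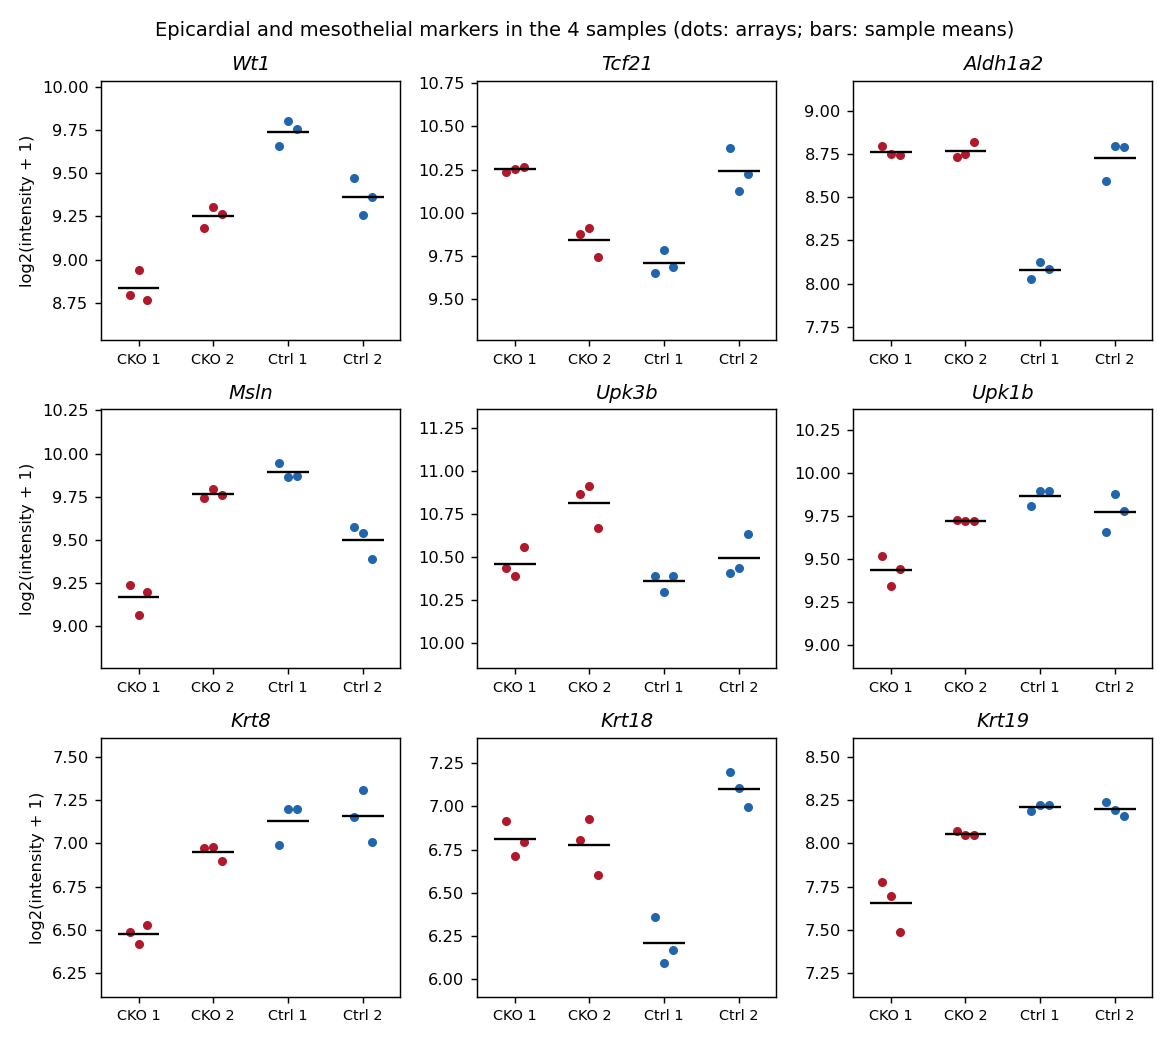
Levels of the 9 markers, log2(intensity + 1), in Salv CKO 1, Salv CKO 2, Control 1 and Control 2. Dots are the 3 technical arrays, bars the sample means, and every panel spans 1.5 units. Wt1, Msln, Upk1b, Krt8 and Krt19 are lowest in Salv CKO 1, whereas Tcf21, Aldh1a2, Upk3b and Krt18 are lowest in Control 1.

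Among the transcription factors, Wt1, a zinc finger protein needed for the formation of the epicardium, had the widest gap between the groups. Wt1 stood at 8.83 and 9.25 in Salv CKO 1 and 2, against 9.74 and 9.36 in Control 1 and 2. Deposited Wt1 intensities averaged 397 and 720 in these Salv CKO samples, against 909 and 600 in the controls. The groups did not overlap in normalized level, but Salv CKO 2 and Control 2 lay only a short way apart, and without normalization Salv CKO 2 lay above Control 2. The Wt1 difference was -0.51 ± 0.27 (SE, limma, adjusted p = 0.999), a fold of 0.703, with a 95% interval from -1.23 to 0.22. It was -0.30 without Salv CKO 1 and -0.72 without Salv CKO 2.

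Tcf21, a basic helix-loop-helix factor of epicardial cells and of the fibroblasts that derive from them, showed another order. Its level was 10.25 and 9.84 in Salv CKO 1 and 2, against 9.71 and 10.24 in Control 1 and 2. Each group thus held a high and a low sample, and the highest and lowest samples were those in which Wt1 was lowest and highest. The Tcf21 difference was 0.07 ± 0.30 (SE, limma), and it changed sign without Control 1 (-0.19) and without Salv CKO 1 (-0.13). Of 11 fibroblast markers measured, 5 were higher and 6 lower, with a median difference of -0.03 and 0 at an unadjusted p under 0.05. Without Pdgfra, a fibroblast receptor gene whose arrays of the same RNA disagreed, 4 of 10 were higher and 6 lower, with a median of -0.05. Both counts of lower genes include Col1a1, a collagen gene whose probe read from 1 to 11, near background. Its difference of -0.42 was -0.12 at a pseudocount of 16.

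Aldh1a2, the retinaldehyde dehydrogenase that makes retinoic acid in the epicardium, was level in 3 samples and low in the fourth. It stood at 8.76 and 8.77 in Salv CKO 1 and 2, against 8.08 and 8.73 in Control 1 and 2. The Aldh1a2 difference of 0.36 ± 0.30 (SE, limma, adjusted p = 0.999) was 0.04 without Control 1 and 0.69 without Control 2. The gap of 0.65 between the controls exceeded the difference between the groups.

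Other genes of the retinoic acid pathway were read from a list chosen with earlier results of these data known, of which 14 of 18 were measured. Of the 14, 5 were higher and 9 lower, with a median difference of -0.11, and 0 passed an adjusted p of 0.05 in limma. At an unadjusted p under 0.05 there was 1, Rbp4, the plasma carrier of retinol, against 3.96% of all probes. Rbp4 stood at 7.83 and 7.56 in Salv CKO 1 and 2, against 8.59 and 8.56 in Control 1 and 2. Its difference was -0.88 ± 0.22 (SE, limma, adjusted p = 0.999), and from -1.02 to -0.74 with 1 sample left out. Rxrg, a retinoid X receptor gene, differed by -0.50 ± 0.22, and Rxra, another, by 0.31 ± 0.22. Aldh1a3, a further enzyme of retinoic acid synthesis, differed by -0.42, a difference of 0.0 without Salv CKO 1.

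Among the surface proteins of mesothelium, Msln, the glycoprotein mesothelin, differed more within the groups than between them. Its level was 9.17 and 9.77 in Salv CKO 1 and 2, against 9.89 and 9.50 in Control 1 and 2. Deposited Msln intensities ran from 471 to 509 on the arrays of Salv CKO 1 and from 959 to 1096 on those of Salv CKO 2, against 936 to 1141 in Control 1 and 629 to 705 in Control 2. In normalized level no array of a sample reached into the range of another, so the order of the 4 samples was the same on any choice of their arrays. The gap between the samples labelled Salv CKO was 0.60, against a group difference of -0.23 ± 0.31 (SE, limma, 95% interval from -1.05 to 0.59). Without Salv CKO 1 the Msln difference was 0.07.

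The uroplakins were the least variable of the markers. Upk3b encodes a membrane protein shared by the urothelium and mesothelium, and Upk1b encodes a tetraspanin that pairs with uroplakins of this kind in the bladder. Upk3b stood at 10.46 and 10.81 in Salv CKO 1 and 2, against 10.36 and 10.49 in Control 1 and 2. Salv CKO 2 was high and the other 3 samples lay close together. Upk1b stood at 9.43 and 9.72 in Salv CKO 1 and 2, against 9.86 and 9.77 in Control 1 and 2, where Salv CKO 1 was low. The differences were 0.21 ± 0.24 for Upk3b and -0.24 ± 0.23 for Upk1b (SE, limma, adjusted p = 0.999 each). Upk3b was at 0.03 without Salv CKO 2, and Upk1b at -0.09 without Salv CKO 1. Of 24 other uroplakin and tetraspanin genes measured, 15 were higher and 9 lower (median 0.03), where 51.4% of all probes were lower. At an unadjusted p under 0.05 there were 0, against 3.96% of all probes. Upk1a, the other tetraspanin uroplakin, was dim, with intensities from 11 to 23, and differed by -0.42 ± 0.22.

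The keratins form filaments from a type II chain, Krt8, and a type I chain, Krt18 or Krt19. Krt8 stood at 6.48 and 6.95 in Salv CKO 1 and 2, against 7.13 and 7.16 in Control 1 and 2. Krt19 stood at 7.65 and 8.06 in Salv CKO 1 and 2, against 8.21 and 8.20 in Control 1 and 2. In both genes Salv CKO 1 was well below the other 3 samples, and the controls differed by 0.03 in Krt8 and by 0.01 in Krt19. Krt18, in contrast, stood at 6.81 and 6.78 in Salv CKO 1 and 2, against 6.21 and 7.10 in Control 1 and 2, so that the controls held both its lowest and its highest level. The differences were -0.43 ± 0.26 for Krt8, -0.35 ± 0.24 for Krt19 and 0.14 ± 0.36 for Krt18 (SE, limma, adjusted p = 0.999 each). Without Salv CKO 1, Krt8 differed by -0.20 and Krt19 by -0.15, and without Control 1, Krt18 differed by -0.31.

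Of 24 other keratin and simple epithelial genes measured, 10 were higher and 14 lower, with a median difference of -0.11, and only 8 lay above the median probe. At an unadjusted p under 0.05 there was 1 of 24, against 3.96% of all probes. It was Epcam, an epithelial adhesion gene, which was dim, with deposited intensities from 0 to 44. Epcam stood at 3.10 and 1.75 in Salv CKO 1 and 2, against 4.02 and 5.47 in Control 1 and 2, and its difference of -2.32 was -1.03 at a pseudocount of 16. Krt5, the basal keratin, differed by 0.72 ± 0.39, and by 0.29 without Control 1, its lowest sample. Cldn7, a tight junction gene, differed by -0.58 and Grhl2, an epithelial transcription factor, by 0.43. Grhl2 was dim (14 to 48), and its difference was 0.26 at a pseudocount of 16. Krt15, another basal keratin, stood at 5.03 and 3.13 in Salv CKO 1 and 2, against 2.05 and 5.13 in Control 1 and 2. It was dim as well, with intensities from 1 to 37, and its difference of 0.49 was 0.08 at a pseudocount of 16.

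Upstream sequence from RefSeq (GRCm38.p6) was matched by symbol for 5 of 9 markers, Tcf21, Aldh1a2, Upk3b, Krt8 and Krt18, and not for Wt1, Msln, Upk1b and Krt19. The 250 bases before the annotated start are shown for Krt8 and Krt18, which encode filament partners and start 23874 bases apart on chromosome 15 yet ordered the samples differently, and for Upk3b, in which a TEAD motif was found. Capitals mark that motif, CATTCC.
Krt8, chr15:102004343-102004592, minus strand: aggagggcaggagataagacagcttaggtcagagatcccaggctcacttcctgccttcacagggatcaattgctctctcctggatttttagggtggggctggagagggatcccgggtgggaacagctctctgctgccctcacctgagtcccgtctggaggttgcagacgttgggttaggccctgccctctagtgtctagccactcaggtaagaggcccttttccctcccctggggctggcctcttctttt
Krt18, chr15:102027966-102028215, plus strand: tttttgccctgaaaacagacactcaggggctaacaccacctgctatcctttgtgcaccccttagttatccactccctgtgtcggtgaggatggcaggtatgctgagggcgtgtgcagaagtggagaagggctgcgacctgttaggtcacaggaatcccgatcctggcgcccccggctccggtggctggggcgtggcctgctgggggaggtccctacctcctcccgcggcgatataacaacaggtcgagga
Upk3b, chr5:136038246-136038495, plus strand: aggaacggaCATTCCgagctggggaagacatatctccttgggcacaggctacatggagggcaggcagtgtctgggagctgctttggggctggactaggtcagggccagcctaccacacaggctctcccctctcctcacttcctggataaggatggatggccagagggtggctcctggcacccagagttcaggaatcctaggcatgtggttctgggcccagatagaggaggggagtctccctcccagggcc

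The motifs searched on both strands of these windows were CATTCC, the M-CAT element that TEAD factors bind, GCGTGGGNG, an element of WT1 and EGR factors, and TATAAA, the TATA box; matches were counted separately for each motif, and none overlapped another. CATTCC was found in 1 of the 5 promoters, that of Upk3b, at position -241 from its start, and in 12.6% of 32851 RefSeq promoter windows. GCGTGGGNG was found in 0 of 5 and in 1.65% of all windows, and TATAAA in 0 of 5 and in 12.4%. These matches describe letters in the windows and no binding was measured.

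**Figure D2:**
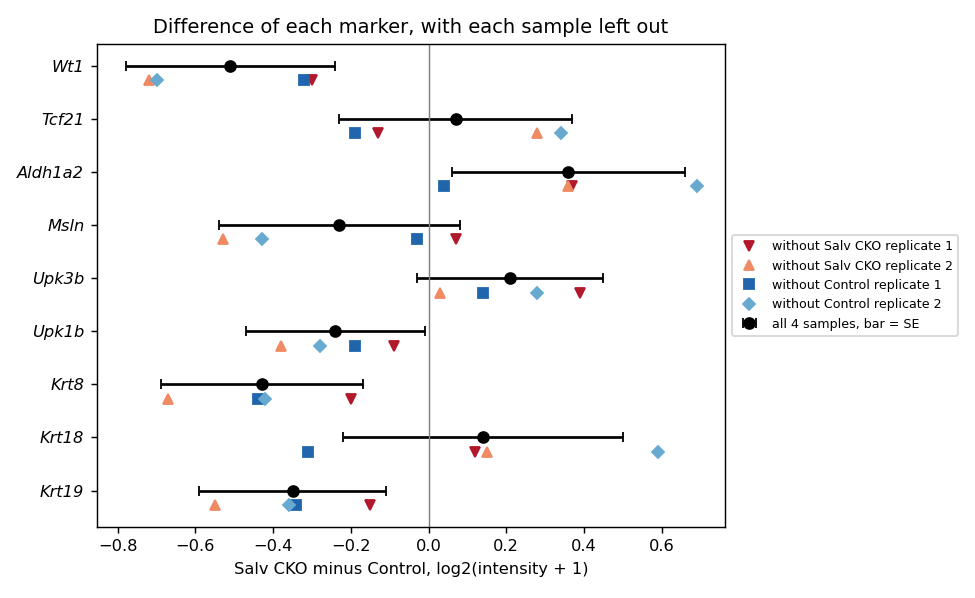
Difference of each marker, Salv CKO minus Control in log2(intensity + 1). Black points are the estimates from all 4 samples with their SE, and coloured symbols the estimates with 1 sample left out. Tcf21, Msln and Krt18 change sign when a sample is left out, and Wt1 runs from -0.72 to -0.30.

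The markers ordered the 4 samples in more than 1 way. Salv CKO 1 was the lowest sample for 5 of 9 markers (Wt1, Msln, Upk1b, Krt8 and Krt19), against 27.9% of all probes, and Control 1 for the other 4, against 28.5%. Neither Salv CKO 2 nor Control 2 was lowest for any of the 9, against 18.7% and 24.8% of all probes. Among probes above the median probe, as the markers are, the shares were 30.7% for Salv CKO 1 and 30.9% for Control 1. The levels of a marker spanned from 0.43 (Upk1b) to 0.90 (Wt1 and Krt18) over the 4 samples. The SD between samples of a group exceeded the SD between technical arrays for 9 of 9 markers, by 1.83 times in Upk3b to 4.92 times in Msln, against 82.7% of probes above the median probe. No marker spanned 1 unit, the minimum set for naming genes of like pattern, so none are named.

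The list of further genes of the epicardium and mesothelium, chosen with earlier results of these data known, held 30, and all were measured. Of these 30, 9 had a higher and 21 a lower mean under the Salv CKO label, with a median difference of -0.26, against 51.4% of all probes lower and a median of -0.01. In limma 0 passed an adjusted p of 0.05, and 1, Bnc1, had an unadjusted p under 0.05, against 3.96% of all probes. Bnc1, a zinc finger gene of mesothelium, had intensities from -1 to 6, near background, and its difference of -0.80 was -0.17 at a pseudocount of 16. Gata5, a transcription factor gene of the epicardium, was dim as well (15 to 45) and differed by -0.72, and by -0.35 without Salv CKO 1. Calb2, the mesothelial calcium-binding protein calretinin, differed by 0.49 ± 0.22 and Prss12, a serine protease gene, by -0.43 ± 0.21, at intensities of at most 59 and 74.

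Salv CKO 1 was the lowest sample for 18 of these 30 genes, against 27.9% of all probes. It was lowest for 12 of the 21 above the median probe, against 30.7% of all probes above it. Control 1 was the highest sample for 17 of the 30, where 9457 of 26423 probes were highest there. Above the median probe it was highest for 10 of the 21, where 5269 of 13211 probes were. Dmkn, a secreted epithelial protein gene, stood at 7.29 and 8.67 in Salv CKO 1 and 2, against 8.74 and 8.00 in Control 1 and 2. Muc16, the mucin that binds mesothelin, stood at 7.24 and 8.17 in Salv CKO 1 and 2, against 8.14 and 7.81 in Control 1 and 2. Lrrn4, a leucine-rich repeat gene used as a mesothelial marker, stood at 6.47 and 7.22 in Salv CKO 1 and 2, against 7.33 and 6.92 in Control 1 and 2. In Dmkn, Muc16 and Lrrn4, as in Msln, Salv CKO 1 was lowest, Control 2 next, and Salv CKO 2 close to Control 1; these 3 were picked after their values were seen. Tbx18 and Hand2, transcription factor genes of epicardial and other cardiac cells, were instead lowest in Control 2, and differed by 0.22 and 0.58. Relative to each gene's mean, the median level over the 30 genes was -0.30 and 0.10 in Salv CKO 1 and 2, against 0.19 and -0.06 in Control 1 and 2. Over the 9 markers the same medians were -0.26 and 0.03, against 0.17 and 0.14.

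**Figure D3:**
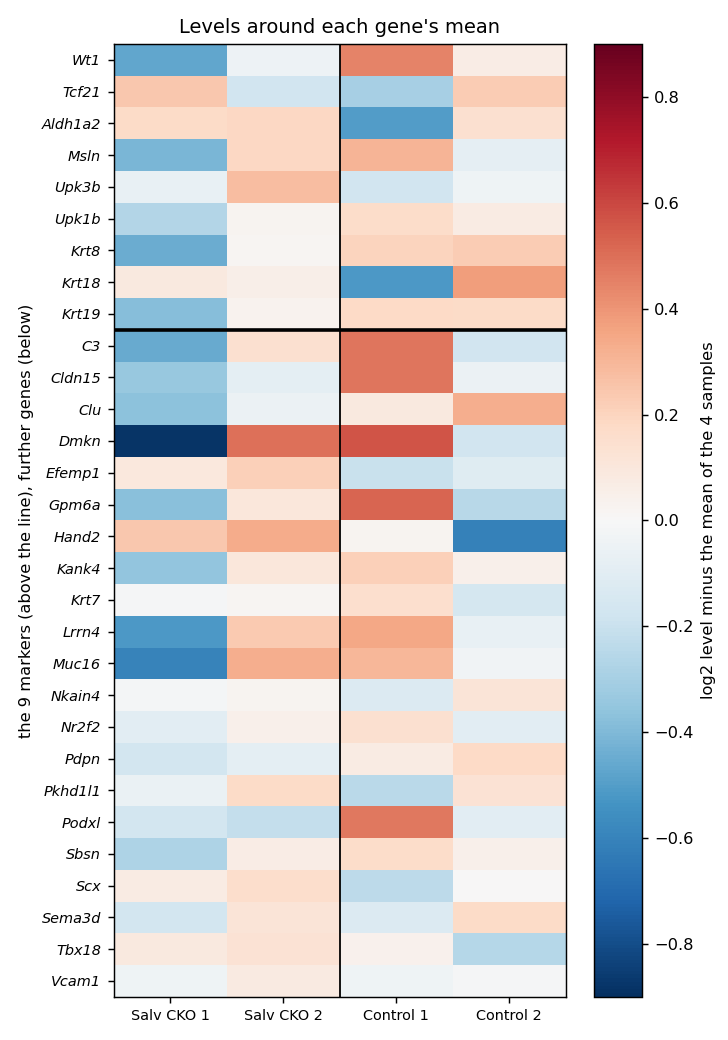
Levels of the 9 markers (above the line) and of the 21 further genes above the median probe (below it) in the 4 samples, as log2 level minus the gene's mean over the samples. Blue is below and red above that mean. The first column, Salv CKO 1, is lowest for 5 of 9 markers and 12 of 21 further genes, against 30.7% of all probes above the median probe.

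Markers of other tissues also differed between the 4 samples, in orders of their own, and their part in the marker levels was not tested. Of 14 lung and airway genes measured, only 6 lay above the median probe. Of the 14, 2 were higher and 12 lower, with no group separation in any. Their median difference was -0.66 (-0.54 without Foxj1, whose arrays of the same RNA disagreed). Their summed normalized intensity was 3010 and 1171 in Salv CKO 1 and 2, against 1135 and 8625 in Control 1 and 2. The airway secretoglobin gene Scgb3a2 stood at 10.61 and 3.29 in Salv CKO 1 and 2, against 4.02 and 11.55 in Control 1 and 2, and Sftpd, a surfactant protein gene, at 6.39 and 2.39, against 2.60 and 6.54. Salv CKO 1 and Control 2 were the highest samples for 9 of the 14, among them Scgb1a1, Scgb3a1, Reg3g and Sftpb, where 19.1% of all probes had that order. Of the other 5, Foxj1, Cldn18 and Lamp3 were highest in Control 1, Ager in Salv CKO 1, and Sftpa1 in Control 2. The pair of Salv CKO 1 and Control 2 was picked after the airway values were seen. Its counts, here and in the next sentences, therefore describe the order and are no test of it. Salv CKO 1 and Control 2 were the lowest samples for 1 of the 9 markers, Msln, and for 13 of the 30 further epicardial and mesothelial genes, where 23.7% of all probes had that order. They were the highest for 2 of the 9 markers and for 0 of those 30. Krt18 was highest in Control 2, at 7.10, against 6.21 in Control 1. Krt8 stood at 7.13 and 7.16 in Control 1 and 2, and Krt19 at 8.21 and 8.20, so both were about level there. Krt18 was about level in the samples labelled Salv CKO, whereas Krt8 and Krt19 were lowest in Salv CKO 1. Any airway part in these keratin levels was not tested.

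Of 10 brown fat and adipocyte genes, 2 were higher and 8 lower (median -0.72), and 7 were lowest in Salv CKO 2. The 3 erythroid genes measured were each lowest in Control 2. Of 10 endothelial genes, 2 were higher and 8 lower, with a median of -0.10 and a summed intensity of 35102 and 36616 in Salv CKO 1 and 2, against 39134 and 35203 in Control 1 and 2. Of 12 thymus genes 6 were higher, and of 6 liver genes 3, and only 2 and 4 of these lay above the median probe. The summed intensity of the 9 markers was 5182 and 5970 in Salv CKO 1 and 2, against 5659 and 5899 in Control 1 and 2. The brightest markers, Upk3b and Tcf21, weigh most in that sum.

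**Figure D4:**
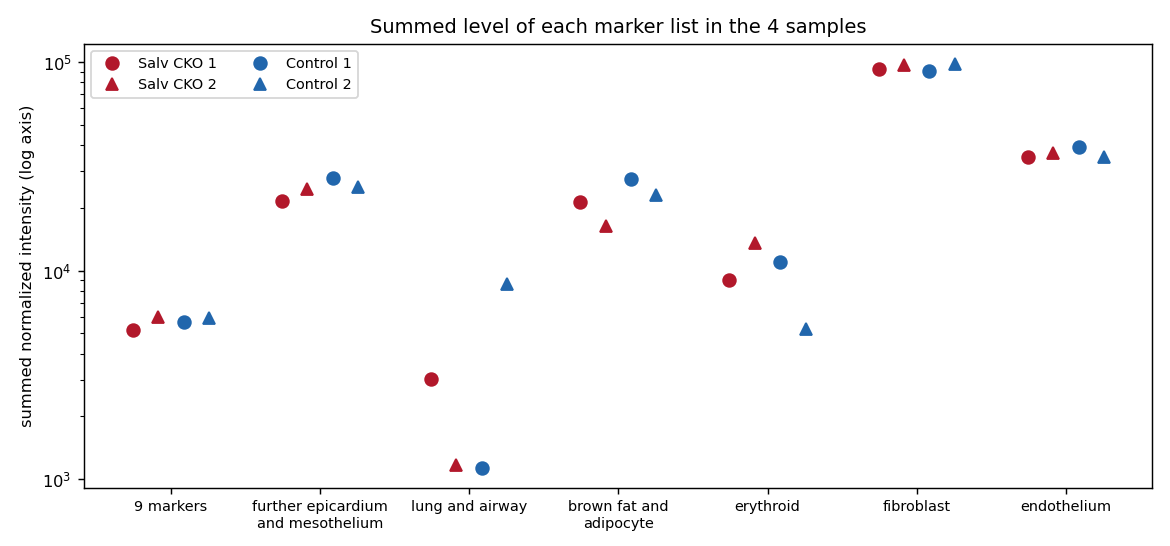
Summed normalized intensity of the 9 markers and of lists for other tissues in each sample, on a log axis. Red symbols are the samples labelled Salv CKO and blue symbols the controls. The airway sum ranges from 1135 to 8625, and the sum of the 9 markers from 5182 to 5970. A sum weighs the brightest genes most, and single markers spanned from 0.43 to 0.90 log2 units.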

How the data were processed

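Amplified, Cy5-labelled RNA was hybridised as 1 sample per array, per the labels' protocols. The deposited values are intensities, whole numbers from -10 to 65474, so that a background had been subtracted; the sources name neither the scanner nor the authors' normalization. Array medians ran from 58 to 88, and the 12 arrays were quantile normalized. Values below the lowest positive one (0.0833) were set to it, and log2(value + 1) was averaged over the 3 technical arrays of a sample. limma 3.58.1 (R 4.3.3; lmFit, eBayes; 2 residual and 2.6 prior degrees of freedom) compared 2 Salv CKO with 2 Control samples, with Benjamini-Hochberg adjustment over 26423 probes, and was tested on simulated data. In the simulated data, 2 of 250 probes with a log2 change of 1 passed, and 170 of 250 with a change of 2. The marker differences ran from -0.51 to 0.36, so that 0 of 9 passing does not show them unchanged. The number of samples limits the precision, and p-values cover only the spread among these 4, which may be technical.

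Of the probes, 20377 had 1 symbol, 0 several and 6046 none; symbols were updated through RefSeq (18213 by symbol, 2126 by a unique synonym, 38 unmatched). The brightest probe stands for a gene. The markers and the 12 lists were chosen with earlier results of these data known. From each list, up to 4 genes with the smallest p and those spanning over 3 units were to be named; those of the other-tissue lists are given by counts where no marker result turned on them. Alternatives covered normalization, pseudocount, averaging, a filter, the variance model, blocks and each sample left out. Figures were drawn with matplotlib 3.10.9.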

Additional observations from a re-analysis of the deposited data

How the results depend on the processing

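No marker passed an adjusted p of 0.05 in limma in any of 13 other settings (smallest adjusted p = 0.351, Wt1, with all 12 arrays and samples as random blocks, where 3 of 9 markers had an unadjusted p under 0.05). The 0 probes called became 10 with array median centring, 61 with that random block and 11 without normalization. The 4 markers lower without overlap became 2 with array median centring and 0 without normalization. Signs changed for Tcf21 (-0.11 with array median centring, -0.13 without Salv CKO 1, -0.19 without Control 1, and up to 0.34 with 1 sample left out), Msln (0.07 without Salv CKO 1, and down to -0.53) and Krt18 (-0.31 without Control 1, and up to 0.59), and for no other marker in these settings. The cause was not tested. The markers lowest in Salv CKO 1 numbered 5 or 6 and the further genes 17 to 22 in 4 other settings, where 28.1% to 40.8% of all probes were lowest there.

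Sample numbers shared between the groups did not pair the samples: deviations of like-numbered samples correlated at -0.253. Among probes above the median probe, as the markers are, they correlated at -0.482. Over all probes the closest samples were Salv CKO 1 and Control 2 (Pearson r = 0.9865). The farthest apart were Salv CKO 1 and Control 1 (r = 0.9759). With the replicate block, 0 probes and 0 of 9 markers passed (limma, smallest marker adjusted p = 1.0). The median difference of the markers was -0.23 there too, since a balanced block leaves each difference as it is. It ranged from -0.38 to -0.09 with 1 sample left out and was -0.39 with array median centring. Crossing the numbers also gave 0 and 0. No normalization, the crossed pairing the settings for counts of lowest samples and of overlap, and the lists without Pdgfra or Foxj1 were chosen after seeing the data. Each marker has 1 probe, so a mean over probes gives no other value. No normalization shifts the median of all probes to 0.11.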

Other observations

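A pair of probes outside the 9 markers switched between high and near-background values. Pdgfra, a receptor gene of fibroblasts, stood at 1.01 and 10.72 in Salv CKO 1 and 2, against 2.14 and 8.71 in Control 1 and 2. Its intensities were at most 3 on the arrays of Salv CKO 1 and from 1925 to 2069 on those of Salv CKO 2, against at most 7 in Control 1. In Control 2 they were 17, 1497 and 1610, so that 1 of 3 arrays of the same RNA was near background. Foxj1, a transcription factor gene of ciliated cells, stood at 5.80 and 8.53 in Salv CKO 1 and 2, against 8.82 and 7.24 in Control 1 and 2. Its intensities on the 3 arrays of Salv CKO 1 were 6, 20 and 1108.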
